A study of Mus musculus with 4 samples.

Results

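The 10 genes described here belong to the IL-1 family of ligands, inhibitors and receptors and were taken by name from 2 tables that compare GOLPH2-deficient with wild-type dendritic cells. Of the 10 named genes, 9 had a row under their own symbol in both tables (Il1a, Il1b, Il1rn, Il18, Il18bp, Il1r1, Il1r2, Il1rap and Il33). The tables hold 15881 genes in all, 14823 of them in both. The remaining gene, Il36g, is listed under its older symbol Il1f9; its values are given as Il1f9 beside the others and are left out of the counts of members. The cells were bone marrow-derived dendritic cells (BMDCs) of C57BL/6 mice aged 8 weeks, either wild type (WT) or GOLPH2-/- (KO). GOLPH2 is a Golgi membrane protein encoded by Golm1. Each genotype was profiled by mRNA sequencing without stimulation, and after priming with IFN-gamma for 16 h followed by LPS for 4 h. This gave 4 libraries, 1 for each group, so no comparison has a replicate, and all values compare libraries and not conditions. The labels do not give how the knockout was made, whether mice were pooled, or whether the same mice gave both cultures of a genotype.

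IL-1 alpha and IL-1 beta are early alarm cytokines that signal through the same receptor, IL1R1, together with its accessory chain IL1RAP. The receptor antagonist encoded by Il1rn occupies IL1R1 without signalling, and IL1R2 is a decoy that binds the ligand but carries no signal. IL-1 beta and IL-18 are made as inactive precursors that inflammasome-activated caspase-1 cuts, and IL-18 is held in check in solution by the binding protein encoded by Il18bp. Dendritic cells and macrophages make IL-1 beta and the antagonist strongly after LPS, whereas IL-33 is best known as a nuclear alarmin of barrier and stromal cells.

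The authors' deposited tables give a log2 ratio of KO over WT and a p-value for each gene, and no value per library was analysed here, so levels are unknown and each number below is a ratio between libraries. The ratios are centred at the zero point of the authors' own test, the deposited log2 ratio at which their p-value is closest to 1. This lay at 0.191 in unstimulated and at -0.036 in stimulated cells. The error given as ± is a counting standard error (SE) derived from the ratio and its p-value. Neither it nor the 95% counting interval includes variation between cultures. The test behind the p-value is not given, and both are taken here, as an assumption, to reflect how many reads were sampled. Genes with a Benjamini-Hochberg adjusted p under 0.001, computed over their whole table, are described as called. Golm1 RNA itself stood at 23.5% of WT in unstimulated and 25.0% in stimulated cells, and its protein was not measured here. In bulk RNA, fewer cells of a type and less RNA per cell cannot be told apart.

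Of the 10 genes, 6 lie in 3 clusters of the genome (GRCm38.p6, RefSeq). Il1a (chromosome 2, 129299609 to 129310186) and Il1b (chromosome 2, 129364569 to 129371164) lie within a span of 71.6 kb, on the minus strand. Il1f9 (chromosome 2, 24186476 to 24193567) and Il1rn (chromosome 2, 24336860 to 24351491) belong to a cluster that also holds Il1f8, Il1f6, Il1f5 and Il1f10. Il1r2 (chromosome 1, 40084692 to 40125230) and Il1r1 (chromosome 1, 40222480 to 40316201) open a row of receptor genes that continues with Il1rl2, Il1rl1, Il18r1 and Il18rap and spans 467 kb. Outside these clusters lie Il18bp (chromosome 7, 102015074 to 102018232), Il18 (chromosome 9, 50554700 to 50581841), Il1rap (chromosome 16, 26581509 to 26730128) and Il33 (chromosome 19, 29925113 to 29960718). All are protein-coding.

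The 250 bases before the start site of Il1b, Il1rn and Il1f9 are shown because these ligand and antagonist genes were called lower, after centring, in the unstimulated KO library. They were read from the RefSeq promoter table (GRCm38.p6), each 5′ to 3′ on the strand of its gene. The window of Il1a was searched but is not shown, since most of it lies within the RefSeq bounds of the gene. Capitals mark matches on either strand to 1 of 4 short motifs: kB-like (GGG and CC with any 5 bases between), interferon response element-like (GAAA on either side of any 2 bases), GAS-like (TTC and GAA with any 3 bases between) and TATA-like (TATAAA).
Il1b, chr2:129371140-129371389, minus strand: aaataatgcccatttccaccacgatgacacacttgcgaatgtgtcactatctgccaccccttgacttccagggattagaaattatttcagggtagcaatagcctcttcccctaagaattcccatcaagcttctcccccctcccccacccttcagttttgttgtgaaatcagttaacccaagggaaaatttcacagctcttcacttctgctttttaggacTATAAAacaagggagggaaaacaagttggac
Il1rn, chr2:24336610-24336859, plus strand: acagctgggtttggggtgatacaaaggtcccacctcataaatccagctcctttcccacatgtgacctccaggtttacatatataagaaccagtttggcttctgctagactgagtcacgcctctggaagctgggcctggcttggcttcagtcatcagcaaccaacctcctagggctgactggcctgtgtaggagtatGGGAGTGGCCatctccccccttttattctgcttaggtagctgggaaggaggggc
Il1f9, chr2:24186226-24186475, plus strand: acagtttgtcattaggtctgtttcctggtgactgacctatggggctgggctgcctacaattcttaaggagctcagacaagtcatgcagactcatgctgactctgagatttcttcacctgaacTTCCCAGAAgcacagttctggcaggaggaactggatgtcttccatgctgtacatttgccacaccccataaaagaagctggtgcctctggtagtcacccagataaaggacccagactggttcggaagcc
The Il1b window holds TATAAA at -31 to -26 from the start site, and that of Il1a at -32 to -27, and neither holds another match. The Il1rn window shown, that of the first of 3 start sites, holds a kB-like match at -54 to -45. The ratios are per gene, so which start site of Il1rn these cells used is unknown. Of the other windows of Il1rn, which lie inside the gene, 1 holds a kB-like match at -51 to -42 and 1 holds none. The Il1f9 window holds a GAS-like match at -128 to -120. Over all 32851 windows of 250 bases in the table, 12.4% hold TATAAA, 45.8% the kB-like, 7.02% the GAS-like and 2.98% the interferon response element-like letters, so a kB-like match is common. Among the 14 windows of the 10 genes, 4 hold the kB-like, 2 the GAS-like, 5 the TATA-like and 0 the interferon response element-like letters. TATAAA was added to the search after the windows had been read. In GENCODE M21, the Il1b window lies within transcripts of Il1bos on the other strand, and at most 7 bases of the Il1rn window shown lie in an exon of Il1rn; no transcript covers the Il1f9 window.

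In unstimulated cells the agonist genes Il1a and Il1b and the receptor gene Il1r1 were lower in the KO library, with the ratios centred or as deposited. Of the 9 members, 4 were called lower (Il1a, Il1b, Il1rn and Il1r1) and 0 higher, where 4.27% of all genes of the table were called lower and 4.70% higher (8.96% in either direction). Genes of many reads are called more readily. Among the tenth of genes with the smallest counting SE, which holds Il1a, Il1b and Il1rn, 18.2% were called lower and 23.6% higher. The median ratio of the 9 members was -0.27, and that of all genes 0.001. No member reached 1.5-fold (0.58 on the log2 scale) together with a call, which 0.708% of all genes did, and 0 members are among the 161 genes that the authors' deposited table marks for unstimulated cells. These 161 are exactly the genes past 1.5-fold as deposited with an adjusted p under 0.001, so the marks repeat the same rule without centring.

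Among the ligands, Il1b, which encodes IL-1 beta, had a deposited log2 ratio of -0.22 in unstimulated cells and a centred one of -0.41, so that the KO library held 75.0% of the WT level. Its counting SE is at most 0.019, since its p-value is at the limit of the table. Among the 11236 genes at least as precise as 50 reads per library (a counting SE up to 0.29), 1.78% had a lower ratio than Il1b. Il1a, which encodes IL-1 alpha, was at -0.13 as deposited and -0.32 after centring, with an SE of at most 0.015, or 80.2% of WT. Both agonists were therefore below WT on either scale, Il1b by the larger step. Il1f9, the gene of the epithelial and myeloid cytokine IL-36 gamma, was also called lower, at -0.30 ± 0.056 (81.3% of WT, as deposited -0.11). Il18 was at -0.33 ± 0.28, and its 95% counting interval (-0.87 to 0.22) spans 0. Il33 was at -0.27 ± 0.47 (interval -1.20 to 0.66). Neither Il18 nor Il33 was called, and a difference of the size seen for Il1b was not detectable for them at this precision.

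The inhibitors of the ligands stood closer to WT in unstimulated cells. Il1rn, the receptor antagonist gene, was called, at -0.10 ± 0.011 after centring (93.3% of WT) but 0.09 as deposited, so the sign of its ratio depends on the centring. Its call rests on a p-value with its zero point at 0.191, and the deposited ratio lies below that point. Il18bp was at -0.09 ± 0.031 and was not called, with 0.10 as deposited. Among the receptors, Il1r1, the signalling chain, was called lower at -0.34 ± 0.049 (78.9% of WT, as deposited -0.15). Its interval reached from -0.44 to -0.25. The decoy receptor gene Il1r2 (-0.06 ± 0.071, as deposited 0.13) and the accessory chain gene Il1rap (0.09 ± 0.076, as deposited 0.28) were not called. Il1rap was the 1 member of the 9 with a centred ratio above 0.

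**Figure D1:**
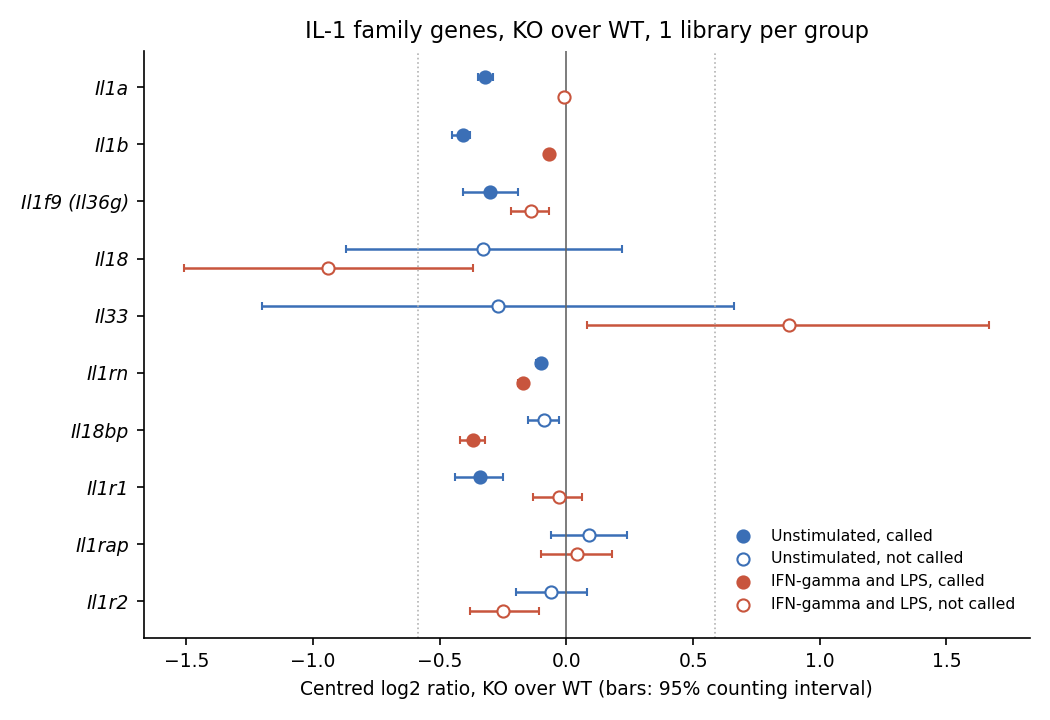
Centred log2 ratio of KO over WT (horizontal axis) for the 9 members and Il1f9, in unstimulated (blue) and stimulated cells (red), 1 library per group. Filled points were called (adjusted p under 0.001), open points were not, bars are 95% counting intervals, and dotted lines mark 1.5-fold. Il1a, Il1b, Il1f9 and Il1r1 sit between -0.41 and -0.30 in unstimulated cells and between -0.14 and -0.01 in stimulated cells.

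After IFN-gamma and LPS, the agonist genes Il1a and Il1b were near the WT level and the inhibitor genes Il1rn and Il18bp lay lower. The ligand genes Il1f9 (-0.14 ± 0.040) and Il18 (-0.94 ± 0.29) were also below WT, and neither was called. Of the 9 members, 3 were called lower (Il1b, Il1rn and Il18bp) and 0 higher, beside 6.54% of all genes called lower and 5.36% higher (11.9% in either direction). In the tenth of genes with the smallest SE, which holds Il1a, Il1b, Il1rn and Il18bp, 25.6% were called lower and 27.2% higher. The members' median was -0.07, and that of all genes 0.005. No called member reached 1.5-fold, as 1.02% of all genes did, and 0 members are among the 159 genes marked in the authors' deposited table for stimulated cells. These 159 are likewise exactly the genes past that rule as deposited.

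In stimulated cells Il1a was at -0.01 ± 0.0071 (as deposited -0.04), and its counting interval reached from -0.02 to 0.01. Il1b was called lower, but by a small step, at -0.07 ± 0.0058 (95.4% of WT, as deposited -0.10). Only 0.0980% of the genes had a smaller SE than Il1b. Of the 11112 genes at least as precise as 50 reads per library, 32.1% had a lower ratio than Il1b. Il1f9 was at -0.14 ± 0.040 (90.5% of WT) and was not called. The ratios of Il1a and Il1b thus lay well inside the spread of these genes.

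The inhibitor genes were further from WT in the stimulated libraries. Il1rn was called lower at -0.17 ± 0.0081 (88.7% of WT, as deposited -0.21). Il18bp, whose product neutralises IL-18 and which is known to be induced by IFN-gamma, was called lower at -0.37 ± 0.026 (77.5% of WT, as deposited -0.40), and 4.00% of the genes as precise as 50 reads had a lower ratio. The decoy gene Il1r2 was at -0.25 ± 0.071 (84.3% of WT, interval -0.38 to -0.11), short of the threshold. Il1r1 (-0.03 ± 0.048) and Il1rap (0.04 ± 0.070) were not called, with intervals from -0.13 to 0.06 and from -0.10 to 0.18.

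The members with the largest ratios in stimulated cells were those with the largest counting errors. Il18 was at -0.94 ± 0.29, or 52.0% of WT with a counting interval from 35.0% to 77.2%, and was not called at the threshold used. Il33 was at 0.88 ± 0.40 (interval 0.08 to 1.67), also not called. Their counting errors were larger than those of 72.7% and 77.4% of all genes in the table. Il18 was below 0 in both states, whereas Il33 changed side, and in unstimulated cells both intervals included 0.

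**Figure D2:**
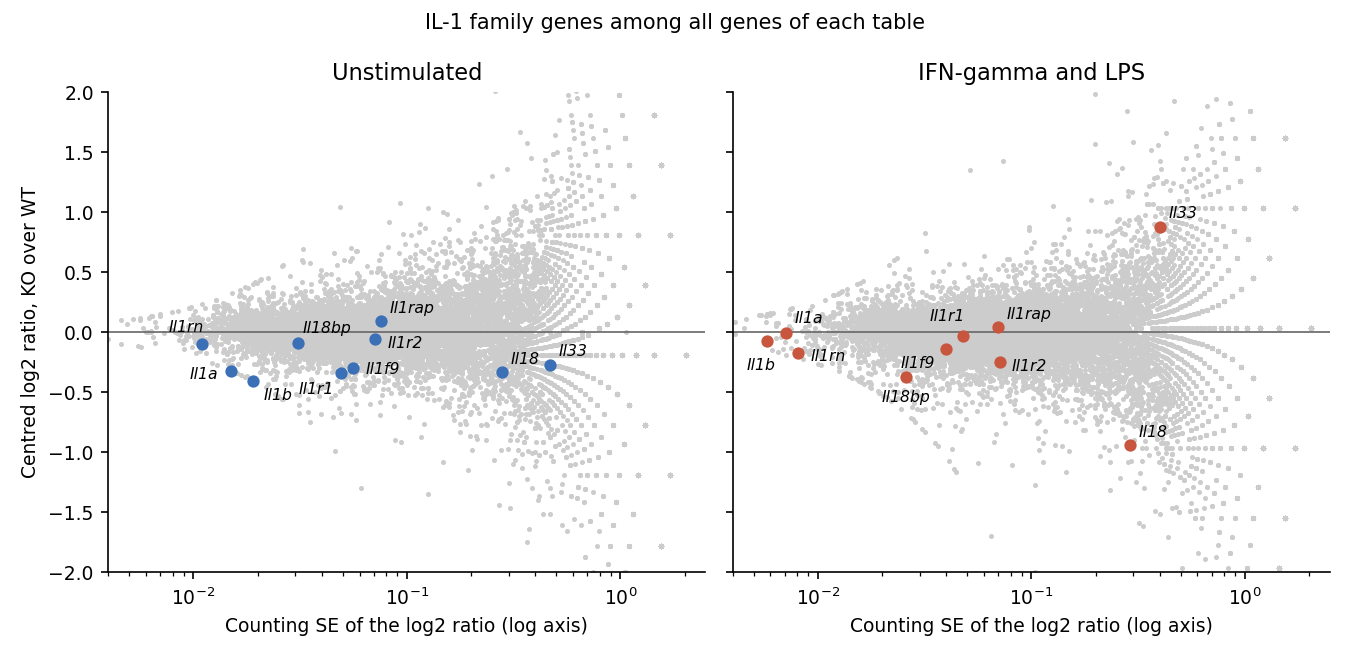
Counting SE (horizontal log axis) against the centred log2 ratio of KO over WT (vertical axis) for every gene (grey) and for the 9 members and Il1f9 (coloured), unstimulated on the left and stimulated on the right. Genes beyond 2 in either direction are not drawn, and the slanted edges at small SE are set by the lowest p-value the tables give. Il1a, Il1b and Il1rn are among the most precise genes, and Il18 and Il33 lie where ratios of either sign spread widely.

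The ratios of Il1a and Il1b were higher in stimulated than in unstimulated cells, and those of the inhibitor genes Il1rn and Il18bp lower. This difference, stimulated minus unstimulated, was not tested, since each group has 1 library, and is given with its counting error. The ratio was higher in stimulated cells for Il1b by 0.35 (SE at most 0.020), for Il1a by 0.31 (SE at most 0.017), for Il1r1 by 0.31 ± 0.069 and for Il1f9 by 0.15 ± 0.069. It was lower for the inhibitor genes, with -0.28 ± 0.040 for Il18bp and -0.07 ± 0.014 for Il1rn. The interval for Il1r2 (-0.38 to 0.01) included 0, as did those of Il1rap (-0.26 to 0.15), Il18 (-1.41 to 0.17) and Il33 (-0.08 to 2.37). With the ratios as deposited, every difference is lower by the gap of 0.227 between the zero points. It was then 0.12 for Il1b, 0.09 for Il1a, 0.08 for Il1r1, -0.07 for Il1f9, -0.30 for Il1rn and -0.50 for Il18bp.

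The value of a ratio between 2 members of the same libraries does not depend on where zero is placed. Its counting error and interval do, since each SE is derived from a centred ratio. For this, 5 such pairs were formed after the values of single genes had been seen. The ratio of Il1b to its antagonist Il1rn was lower in the KO than in the WT library of unstimulated cells, with a log2 difference of -0.31 and an SE of at most 0.022 (80.4% of the WT ratio). In stimulated cells it was higher, at 0.10 with an interval from 0.08 to 0.12 (107%). Il1a over Il1rn went the same way, from -0.22 (SE at most 0.019) in unstimulated to 0.17 ± 0.011 in stimulated cells. The agonists were thus low relative to the antagonist before stimulation and slightly high afterwards. The signalling receptor over the decoy, Il1r1 over Il1r2, was at -0.28 ± 0.087 in unstimulated and 0.21 ± 0.086 in stimulated cells. Il1b over Il1a was below 0 in both states (-0.10 with an SE of at most 0.025, and -0.06 ± 0.0092). Il18 over its binding protein gene Il18bp was at -0.24 ± 0.28 and -0.58 ± 0.29, the second with an interval that ends at 0.

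**Figure D3:**
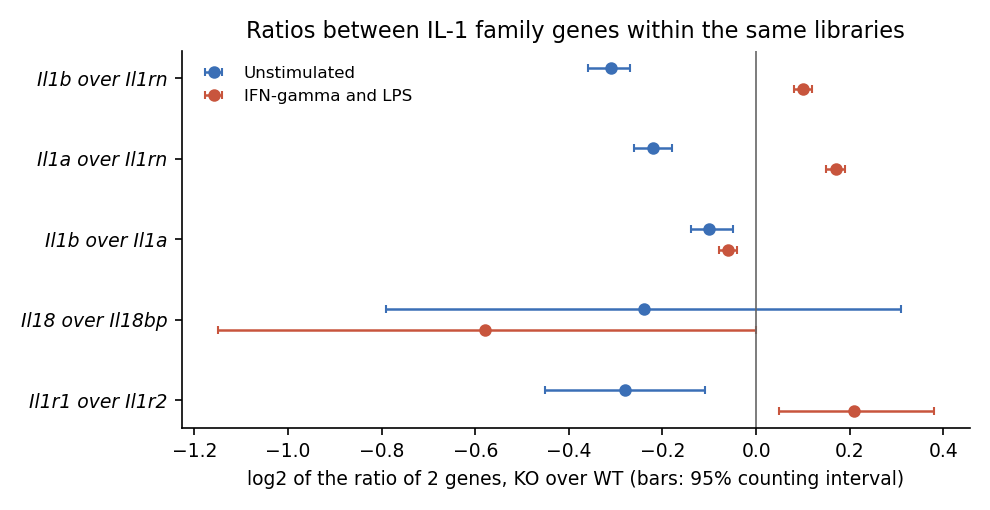
Log2 of the ratio of 2 IL-1 family genes, KO over WT (horizontal axis), for 5 pairs in unstimulated (blue) and stimulated cells (red), with 95% counting intervals as bars and 1 library per group. Il1b over Il1rn, Il1a over Il1rn and Il1r1 over Il1r2 are below 0 in unstimulated and above 0 in stimulated cells.

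Several members overlap other genes. The non-coding genes Gm14023 and Il1bos overlap Il1a and Il1b on the other strand, and although the library kit keeps the strand, the sources used here do not say whether counting used it. Gm14023 was at 0.01 ± 0.19 and -0.33 ± 0.15 and Il1bos at -0.18 ± 0.20 and -0.27 ± 0.13 in unstimulated and stimulated cells, and neither was called. Their errors are many times those of Il1a and Il1b. Il18 overlaps Bco2 and Tex12 on the other strand, and Bco2 was at -1.40 ± 0.41 and -0.61 ± 0.46, not called. The non-coding gene Gm16894 overlaps Il1r2 on the other strand and was at -0.19 ± 0.91 and 1.26 ± 0.95, not called. Gm20319 overlaps Il1rap on the other strand and Gm41832 overlaps Il33, and neither had a row. Reads of Il18 and Bco2 cannot be told apart where they overlap if strand was not used. The same holds for the other overlaps on opposite strands.

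Of 7 other receptor genes of the family, 5 had a row. Beside 8.96% and 11.9% of all genes called either way, 0 of these were called in unstimulated cells and 1, lower, in stimulated cells. That was Il1rl2, the receptor of the IL-36 cytokines, at -0.36 ± 0.059 after stimulation, and -0.17 ± 0.059 before (0.02 as deposited). Within the receptor cluster of chromosome 1, Il1r1 was thus called lower in unstimulated cells and its neighbour Il1rl2 in stimulated cells. Il18r1 and Il1rl1, the receptors of IL-18 and IL-33, had errors between 0.51 and 0.63 in both tables. Sigirr, which encodes an inhibitory receptor of the family, was measured more precisely and was not called, at 0.18 ± 0.11 in unstimulated and -0.18 ± 0.14 in stimulated cells (as deposited 0.37 and -0.21). Of the further ligands, 1 of 7 names had a row, Il1f6 (IL-36 alpha), at -0.26 ± 0.43 and -0.11 ± 0.15.

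Among 20 carriers and brakes of the receptor signal, 6 were called lower and 1 higher in unstimulated cells (list median -0.08), and 4 lower and 1 higher in stimulated cells (median -0.07). By the sign of the deposited ratio, the same unstimulated calls split into 3 lower and 4 higher. Of all genes, 4.27% were called lower and 4.70% higher in unstimulated cells, and 6.54% and 5.36% in stimulated cells. The tenth of genes with the smallest SE, with its higher shares given above, holds 7 of the 20 in unstimulated and 8 in stimulated cells. Irak3, which encodes a kinase-dead brake on the receptor complex, was lowest in unstimulated cells at -0.52 ± 0.046 and was at -0.29 ± 0.034 in stimulated cells. Tnfaip3, the gene of the NF-kB inhibitor A20, was at -0.33 ± 0.021 and -0.36 ± 0.014. Nfkbiz, an NF-kB cofactor gene strongly induced by IL-1 and LPS, was at -0.33 ± 0.045 and -0.19 ± 0.032. These 3 were below 0 in both states as deposited too. Nfkb1 was the 1 gene called higher, at 0.21 ± 0.014 and 0.20 ± 0.013. The adaptor gene Myd88, which IL-1 receptors share with Toll-like receptors, was at 0.05 ± 0.046 in unstimulated and was called lower at -0.20 ± 0.041 in stimulated cells.

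Genes that process or release IL-1 and IL-18 went both ways. Of 17, 3 were called lower and 3 higher in unstimulated cells (median 0.04), and 4 lower and 0 higher in stimulated cells (median -0.01), beside 8.96% and 11.9% of all genes called in either direction. Of these 17, 4 and 7 were among the 10% of genes with the smallest SE. By the sign of the deposited ratio, the same unstimulated calls split into 2 lower and 4 higher. The inflammasome sensor gene Nlrc4 was called lower in both, at -0.47 ± 0.092 and -0.31 ± 0.080. The sensor gene Nlrp3 was called lower in unstimulated cells, at -0.22 ± 0.029 but only -0.03 as deposited, and stood at -0.02 ± 0.020 after stimulation. The adaptor gene Pycard was called higher in unstimulated cells at 0.21 ± 0.044. In stimulated cells Gsdmd, whose product forms the pore through which IL-1 beta leaves the cell, was at -0.26 ± 0.030, and Casp1, the gene of the IL-1 beta-cutting protease, at -0.11 ± 0.026, both called lower. In unstimulated cells Casp1 was at 0.06 ± 0.034 and was not called.

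A list of 18 genes known to be induced by IL-1, most of them also by LPS, had 17 rows. Called lower in unstimulated cells were 11 and higher 1 (median -0.16). Of the same calls, 7 had a deposited ratio below 0 and 5 had one above 0. After stimulation 10 were called lower and 3 higher (median -0.09). Most genes of the list were among the 10% of genes with the smallest SE, 13 of 17 in unstimulated and 16 in stimulated cells. In that 10%, 18.2% of genes were called lower and 23.6% higher in unstimulated cells, and 25.6% and 27.2% in stimulated cells. The neutrophil chemokine gene Cxcl1 was the 1 gene of the list both called and past 1.5-fold, at -0.67 in unstimulated cells (SE at most 0.031); as deposited, at -0.48, it was not past 1.5-fold. It was at -0.18 ± 0.015 in stimulated cells. Csf2, a growth factor gene, had a larger ratio of -1.29 ± 0.64 in unstimulated cells that was not called. Il6 (-0.56 ± 0.026 and -0.22 ± 0.013) and the prostaglandin synthase gene Ptgs2 (-0.52 with an SE of at most 0.024, and -0.16 ± 0.0065) were also called lower in both. Cxcl3 was at -0.13 ± 0.0098 in unstimulated cells (0.06 as deposited) and 0.15 ± 0.0073 in stimulated cells. Ccl2, a monocyte chemokine gene, was called higher in both, at 0.10 ± 0.014 and 0.07 ± 0.011. Apart from Irak3, Tnfaip3, Nfkbiz, Il1f6, Nlrc4, Nlrp3, Gsdmd, Il1rl2 and Cxcl1, the genes of these lists are named after their values were seen.

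**Figure D4:**
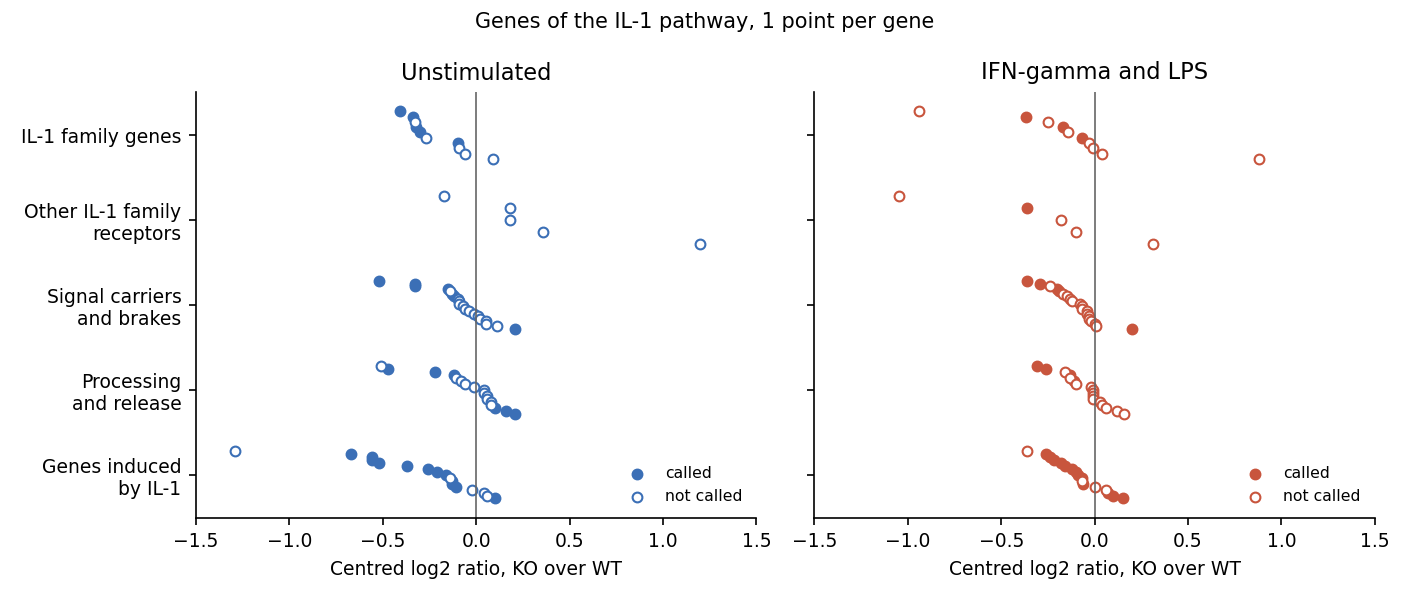
Centred log2 ratio of KO over WT (horizontal axis), 1 point per gene, for the IL-1 family genes (Il1f9 included) and 4 lists of pathway genes, unstimulated on the left and stimulated on the right. Filled points were called. Among genes induced by IL-1, 11 filled points lie below 0 in unstimulated and 10 in stimulated cells.

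Cell type markers also had called genes, and their part in the IL-1 family ratios was not tested. Of all genes, 4.70% were called higher and 4.27% lower in unstimulated cells, and 5.36% and 6.54% in stimulated cells. All 11 dendritic cell markers with a row were at least as precise as 50 reads, and 7 were called higher and 0 lower in each state (medians 0.09 and 0.09), with Clec10a past 1.5-fold at 0.84 ± 0.11 and 0.86 ± 0.15. In each state 7 of these 11 were among the 10% of genes with the smallest SE, where 23.6% and 27.2% were called higher. For macrophages and monocytes, 12 markers had a row, with 7 higher and 1 lower (Csf1r) among the calls in unstimulated cells and 6 higher and 1 lower (Csf1r) in stimulated cells (medians 0.22 and 0.17). C1qb and C1qc were past 1.5-fold in both states, C1qc at 0.74 ± 0.14 and 0.65 ± 0.15 and C1qb at 0.94 ± 0.15 in stimulated cells, and Fcgr1 in unstimulated cells (0.66 ± 0.045). Of 11 stromal markers, 5 were called higher and 0 lower in unstimulated cells, with ratios from -0.19 to 3.06, and 7 higher and 1 lower in stimulated cells, with ratios from -0.74 to 6.27. Collagen genes led in both states, with Col3a1 at 3.06 ± 0.58 and 6.27 ± 0.40, Col1a2 at 1.36 ± 0.29 and 2.77 ± 0.21 and Col5a2 at 1.23 ± 0.22 and 2.86 ± 0.18. Fn1 was called higher in both states, at 1.07 ± 0.093 and 1.43 ± 0.073. Col1a1 was at 0.62 ± 0.25 in unstimulated cells, not called, and was called higher at 3.51 ± 0.19 in stimulated cells. The marker called lower in stimulated cells was Pdgfrb, at -0.74 ± 0.15 (-0.19 ± 0.20 in unstimulated cells, not called). Dcn, Lum and Pdgfra were not called in either state. Beside these calls, Il33, a gene of stromal cells in many tissues, was at -0.27 in unstimulated and 0.88 in stimulated cells and was called in neither. Of 11 neutrophil markers 2 were called lower in unstimulated cells (Lcn2 and Mmp8), and Lcn2 alone of 8 in stimulated cells; Lcn2 is also in the list of genes induced by IL-1. Elane and Ly6g had no row in either table, whereas S100a8, Mpo, Camp, Ltf, Mmp9 and Cxcr2 had a row in both and were not called. S100a9, Ngp and Retnlg had a row in unstimulated cells only and were not called. Of 6 mast cell and basophil markers with a row in unstimulated cells and 3 in stimulated cells, 1 was called in each, Hdc, lower. Cpa3, Mcpt8, Kit, Gata2 and Tpsb2 (3.81 ± 1.4) had a row in unstimulated cells and were not called. Fcer1a, Ms4a2 and Prss34 had no row. Of 10 lymphocyte markers 1 was called higher in each state, Gzma at 0.86 ± 0.16 in unstimulated and Gzmb at 0.68 ± 0.15 in stimulated cells. Levels summed over a list could not be given, since the tables hold ratios only.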

How the data were processed

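The 4 libraries came from WT and KO cells, unstimulated or stimulated; groups were taken from the sample titles. Per the labels' protocols, libraries were made with a strand-specific mRNA kit. The build mm10 and the tools HTSeq 0.6.0 and FastQC 0.10.1 are named, per the submitters' processing notes. The sources used here do not give the aligner, annotation, scaling or test. The authors deposited 2 tables, with a log2 ratio of KO over WT per gene per the file headers, and a p-value deposited as −log10 p. The highest such value is 100 for unstimulated and 150 for stimulated cells. Depth per library is unknown.

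Each zero point is the median deposited ratio of the genes with p above 0.98 whose ratio no other gene shares (92 and 68 genes). The counting SE is the centred ratio divided by the normal deviate of the two-sided p; it is an upper limit for genes at the highest −log10 p (51 and 50 genes), and the median was 0.088 and 0.092. P-values were adjusted by Benjamini-Hochberg over all 15394 and 15310 genes. No test compares conditions, since each group has 1 library. Alternatives were the ratios as deposited or centred on the median gene, adjusted p under 0.05 or 1e-05, a precision filter, and a fold of 1.25 or 2. Members and lists were chosen with earlier results of these data known. All members are named; of each list, the genes called at 1.5-fold (at most the 4 with the largest ratio in a state), or, where there were none, the 2 called genes with the largest ratio. Promoters came from RefSeq, and all 10 genes matched. On simulated data with counting noise only, 68.0% (unstimulated, 15394 genes) and 50.0% (stimulated, 15310 genes) of genes changed by 1.25-fold were called, and 82.0% and 86.0% at 1.5-fold. Only genes at least as precise as 50 reads were changed there. Python 3.11.15, scipy 1.17.1 and pandas 2.3.3 were used.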

Additional observations from a re-analysis of the deposited data

Results flagged for a closer look

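Il33 had ratios on opposite sides of 0 in the 2 states, -0.27 in unstimulated and 0.88 in stimulated cells, under each of the 3 centrings. Neither was called, and the difference was not tested, since each group has 1 library.

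Of the 5 ratios between 2 members, 3 lay on opposite sides of 0 in the 2 states. Il1b over Il1rn was -0.31 in unstimulated and 0.10 in stimulated cells, Il1a over Il1rn was -0.22 and 0.17, and Il1r1 over Il1r2 was -0.28 and 0.21. These pairs were chosen after the single values were seen, and the differences between the states were not tested.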

How the results depend on the processing

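Each state has 1 library per genotype, and the spread between cultures is unknown. No paired analysis was possible because each group has 1 library and the labels carry no replicate numbers, and leaving out a library leaves no comparison. Large counting errors, of 0.28 to 0.47, limit Il18 and Il33.

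With the ratios as deposited, 3 of 20 ratios of single genes (9 members and Il1f9 in 2 states) turned, all in unstimulated cells: Il1rn to 0.09, Il18bp to 0.10 and Il1r2 to 0.13. The difference between states of Il1f9 turned to -0.07. For the counts as deposited, the p-values were kept, and only sign and size were taken from the deposited ratio. A gene counted as higher there can thus lie below the zero point of its test. The members called were then 1 higher and 3 lower in unstimulated cells, signal carriers and brakes 4 higher and 3 lower, and genes induced by IL-1 5 higher and 7 lower. Of all genes in unstimulated cells, 369 were lower (657 when centred), and at 1.5-fold 140 higher and 22 lower (63 and 46). Centring on the median gene turned 0 of the 20 ratios and moved no count by over 1.5 times.

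With adjusted p under 0.05, Il18bp in unstimulated cells and Il18, Il1r2 and Il1f9 in stimulated cells passed as well. In stimulated cells 5 members were lower, 1 of them (Il18) by 1.5-fold; signal carriers and brakes had 12 lower, and processing and release genes 2 higher. In unstimulated cells 1 other receptor was lower. All genes then had 1441 higher and 1308 lower in unstimulated and 1566 higher and 1788 lower in stimulated cells; at 1.5-fold these were 178 and 101, and 156 and 178. Under 1e-05, processing and release genes had 1 higher in unstimulated and 1 lower in stimulated cells. All genes had 416 lower in unstimulated and 542 higher in stimulated cells, and 27 lower at 1.5-fold in unstimulated cells. The looser size rule took in 2 members in unstimulated (Il1b and Il1r1) and 1 in stimulated cells (Il18bp). All genes then had 190 higher and 182 lower, and 191 higher and 323 lower; at the stricter size rule they had 14 and 13, and 35 and 23. With the precision filter 1 count of calls in the report moved by over 1.5 times, the stromal markers called higher in unstimulated cells, to 3; Il18 in stimulated cells and Il33 in both states were left out by it.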
